A study of Mus musculus with 8 samples.

Results

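Osteopontin, the secreted phosphoprotein encoded by Spp1, was followed in mouse liver with diet-induced steatohepatitis together with 4 genes of its receptors, Cd44, Itga4, Itga9 and Itgb1. These 5 genes were chosen as ligand and receptors, with earlier results of these data known. They were matched by symbol in the authors' deposited table and by Ensembl identifier in the count table. All 5 were found among 54309 genes in all. Epcam and Sox9, of bile duct cells, and Cd68 and Gpnmb, of macrophages, served as 4 references. RNA with poly(A) tails came from whole liver of male C57BL/6 mice. antiCD47 livers (4 libraries) were from mice kept for 16 weeks on a diet of fructose, palmitate and cholesterol that provokes steatohepatitis, and injected into the peritoneum between weeks 8 and 16 with an antibody against CD47, at 200 µg per mouse. IgG livers (4 libraries) were from mice on the same diet given IgG over the same weeks. Every animal therefore carried the diet-induced disease, and no healthy liver was among the groups. The sources used here do not give the animals' age, and the labels do not link a library to a mouse.

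Osteopontin is a flexible acidic protein of mineralised tissue, bile ducts and activated macrophages, and it is known as a marker of the ductular reaction and of scarring in steatohepatitis. It docks on several integrins, which are paired α and β chains on the cell surface, through an arginine-glycine-aspartate motif. Cleavage by thrombin a short way behind that motif exposes a cryptic site, between the motif and the cut, that α4β1 and α9β1 bind. CD44, the hyaluronan receptor of leukocytes and of injured epithelium, is described as a further osteopontin receptor.

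The stretch of the Spp1 coding sequence that holds both integrin sites is shown because it is what joins the ligand to the receptor chains described here. It is 90 bases long, and 4 of the 7 Spp1 transcripts in the GENCODE annotation of GRCm38 hold it without a difference. Capitals mark the 9 bases of the arginine-glycine-aspartate codons, which begin at codon 144 of the 294 codons of the Spp1-201 transcript. The 21 lower-case bases right after the capitals encode the cryptic site of 7 residues.
Spp1 coding stretch: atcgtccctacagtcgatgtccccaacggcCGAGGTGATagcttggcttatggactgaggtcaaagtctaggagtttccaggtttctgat

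Total counts lay between 43691472 and 55477484 per library, and levels are given as CPM, counts scaled to a common library size with TMM factors. The two-sided quasi-likelihood test of edgeR called 1678 of the 15472 genes that entered it, at a Benjamini-Hochberg adjusted p under 0.05 over all of them. The number of calls changed with the library left out. Followed here are the 62 genes past the threshold that belong to the 5 genes, the references, the related lists or the patterns most like Spp1. All 62 still passed without antiCD47 1, 56 without antiCD47 4, 50 without IgG 2 and 34 without antiCD47 2. The number was 12 without IgG 1, 11 without IgG 3, and 0 without antiCD47 3 or without IgG 4. Whether this reflects particular libraries or the smaller number of libraries was not tested. The 62 were chosen by their calls with all libraries, most of which each of these fits reuses. That none changed direction in these fits, and that all had unadjusted p-values under 0.05, is therefore no separate evidence. With 0 of the 62 past the adjusted threshold, the whole table held 2101 higher and 1885 lower genes at that unadjusted level without antiCD47 3, and 2190 higher and 1949 lower genes without IgG 4. The 8 hepatocyte markers summed to 57351 to 68786 CPM in antiCD47 livers and 55352 to 60854 CPM in IgG livers, and Alb, the albumin gene, led them.

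Spp1 was the only one of the 5 genes past the threshold with all libraries, and it fell. It had 301, 78.4, 155 and 117 CPM in antiCD47 livers 1 to 4, against 452, 358, 447 and 497 CPM in IgG livers 1 to 4. The treatments did not overlap, with antiCD47 1 nearest to the IgG livers and IgG 2 nearest to the antiCD47 livers. The log2 fold change was -1.43 ± 0.35 (SE; 95% interval -2.20 to -0.65; edgeR adjusted p = 0.0338), so that the antiCD47 level was 0.372 of the IgG level, with bounds of 0.217 and 0.635. The spread was wider in the antiCD47 livers, which averaged 163 ± 97.4 CPM, than in the IgG livers at 439 ± 58.1 CPM (SD, n = 4 each). The authors' deposited table lists an adjusted p of 0.0128 for Spp1. In whole liver, fewer cells of a type and less RNA per cell cannot be told apart.

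The call of Spp1 did not survive leaving out each of several libraries. The adjusted p was 0.05004 without antiCD47 2, 0.0988 without antiCD47 3, 0.0602 without antiCD47 4, 0.083 without IgG 1, 0.0859 without IgG 3 and 0.0931 without IgG 4, with log2 fold changes of -1.20 to -1.41 in these fits (edgeR). Without antiCD47 1 the log2 fold change was -1.91 and the adjusted p 0.0038. A call of 1 gene in 5 stands beside 10.8% of all genes tested called in either direction, 5.4% called lower and 5.44% called higher. A lack of overlap in 1 of 5 stands beside 19.6% of all genes tested in either direction, 10.1% with the antiCD47 livers lower and 9.51% with them higher. The share without overlap is near its background in either direction. The share called is above its background, but it rests on 1 gene and is not read as a result about the 5.

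Cd44 leaned the other way without passing the threshold. Its levels were 21.4, 41.9, 28.8 and 29.9 CPM in antiCD47 livers and 18.5, 17.8, 21.5 and 21.8 CPM in IgG livers. antiCD47 2 stood highest and antiCD47 1 lay inside the IgG range, so the treatments overlapped through that library. The log2 fold change was 0.61 ± 0.18 (SE; 95% interval 0.22 to 1.01; edgeR adjusted p = 0.0526). The gene lay at the edge of the threshold: it passed without antiCD47 1 (0.75, edgeR adjusted p = 0.0102) and by DESeq2 (0.62, adjusted p = 0.00831), and the authors' deposited table lists an adjusted p of 0.0182. Over the other libraries left out in turn its adjusted p reached 0.128. antiCD47 2 had the highest Cd44 and the lowest Spp1 of the 8 libraries, and antiCD47 1 had the lowest Cd44 and the highest Spp1 of the antiCD47 livers.

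**Figure D1:**
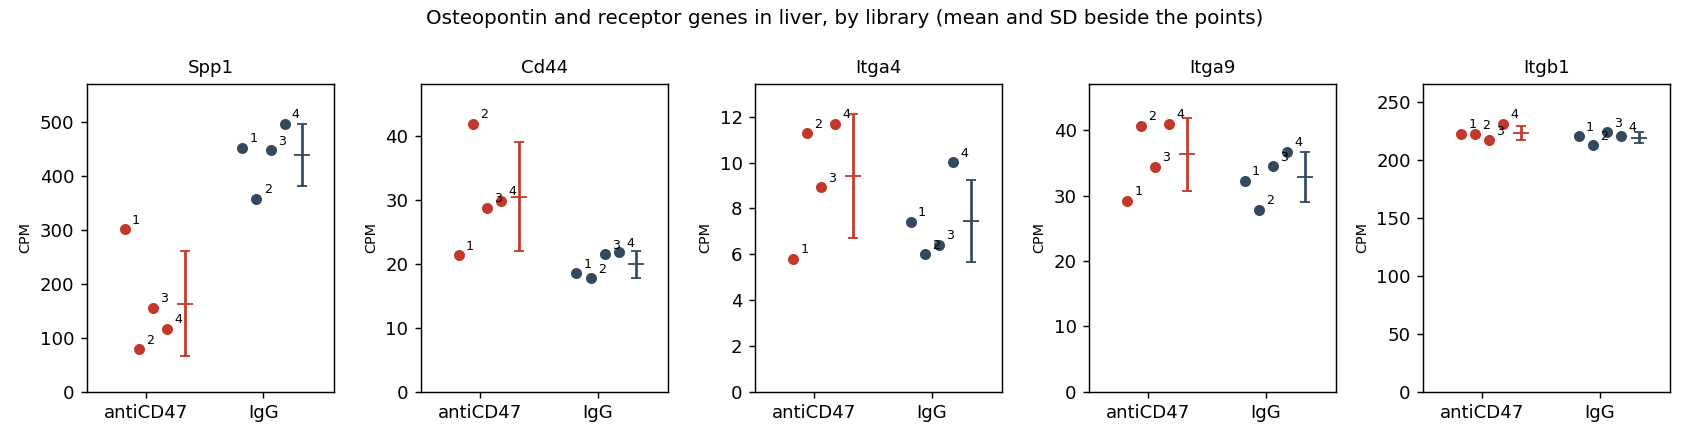
CPM (vertical axis, from 0) of Spp1, Cd44, Itga4, Itga9 and Itgb1 in antiCD47 and IgG livers, 1 point per library with its number, and the mean with SD (n = 4) beside the points. Spp1 separates the treatments, with 78.4 to 301 CPM in antiCD47 livers and 358 to 497 CPM in IgG livers, while Itgb1 stays within 213 to 231 CPM in all libraries.

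Itga4 encodes the α4 chain, which leukocytes use to bind VCAM-1, fibronectin and cleaved osteopontin. It had 5.80, 11.3, 8.93 and 11.7 CPM in antiCD47 livers and 7.42, 6.00, 6.42 and 10.01 CPM in IgG livers. The IgG range lay within the antiCD47 range, with the lowest of the 8 values in antiCD47 1. The log2 fold change was 0.33 ± 0.23 (SE; 95% interval -0.18 to 0.85; edgeR adjusted p = 0.339), an interval that runs from 0.882 to 1.80 times the IgG level. The annotation places Cerkl on the opposite strand over part of Itga4, with 118 to 481 counts per library, and the sources used here do not say whether strand was used in counting.

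Itga9 encodes the α9 chain, the partner of β1 that binds the cryptic site of osteopontin as well as tenascin C. It was at 29.3, 40.7, 34.4 and 41.0 CPM in antiCD47 livers and at 32.3, 27.9, 34.5 and 36.8 CPM in IgG livers. antiCD47 1 and 3 lay within the IgG range and antiCD47 2 and 4 above it. Its log2 fold change was 0.15 ± 0.12 (SE; 95% interval -0.13 to 0.42; edgeR adjusted p = 0.437), and the direction flipped to -0.046 when libraries were scaled by their totals, a scaling that moved the median of all genes to -0.19. An antisense gene, Gm2415, overlaps Itga9 with 17 to 58 counts per library.

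Itgb1, the β1 chain shared by α4, α9 and many other α chains, differed least between the treatments. It was at 223, 222, 217 and 231 CPM in antiCD47 livers and at 221, 213, 224 and 221 CPM in IgG livers. The log2 fold change of 0.025 ± 0.056 (SE; 95% interval -0.099 to 0.15; edgeR adjusted p = 0.781) bounds its level in antiCD47 livers between 0.934 and 1.11 times that in IgG livers. The sign of this small value was negative with scaling by library totals (-0.16) and by upper quartiles (-0.038).

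Per kilobase of the longest annotated transcript, Spp1 was the most abundant of the 5 genes in both treatments, at 108 ± 64.6 CPM per kilobase in antiCD47 livers and 291 ± 38.6 in IgG livers (SD, n = 4 each). Itgb1 followed at 58.6 ± 1.55 CPM per kilobase in antiCD47 livers and 57.6 ± 1.27 in IgG livers. In the IgG livers the ranges of Spp1 (238 to 330) and Itgb1 (55.8 to 58.7) were far apart, and in the antiCD47 livers that of Spp1 (52.0 to 199.9) enclosed that of Itgb1 (56.9 to 60.7). Cd44 had 5.43 ± 1.51 in antiCD47 livers and 3.54 ± 0.365 in IgG livers, and Itga9 had 5.18 ± 0.80 in antiCD47 livers and 4.68 ± 0.54 in IgG livers, so these neighbours did not differ beyond their spread in the antiCD47 livers. Itga4 was lowest, at 0.965 ± 0.277 in antiCD47 livers and 0.764 ± 0.184 in IgG livers. The order rests on the length used, because Itga9 has short annotated transcripts: per kilobase of the median transcript it was at 55.97 in antiCD47 livers and 50.6 in IgG livers, above Cd44 at 15.4 in antiCD47 livers and 10.04 in IgG livers, and Itgb1 at 124 then exceeded Spp1 at 116 in the antiCD47 livers.

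Osteopontin receptors also include αvβ1, αvβ3, αvβ5, αvβ6, α5β1, α8β1 and αXβ2, and 9 further subunits of osteopontin-binding or αv integrins and of the α4 partner β7 were read as a list; the β2 chain Itgb2 was counted among the other subunits. Of these 9, 1 rose, 3 fell and 5 did not pass, where 5.44% of all genes tested were called higher and 5.4% lower, with a median log2 fold change of -0.36, beside -0.0064 for all genes tested. Itgb3, the β3 chain of macrophages, platelets and endothelium, rose, with 5.84, 9.22, 7.31 and 4.35 CPM in antiCD47 livers and 3.93, 3.22, 3.89 and 3.18 CPM in IgG livers (log2 0.91 ± 0.21, edgeR adjusted p = 0.0308). Itga8, the α8 chain of stellate and smooth muscle cells, fell, with 13.6, 6.30, 9.79 and 10.3 CPM in antiCD47 livers and 29.3, 24.4, 25.1 and 39.5 CPM in IgG livers (log2 -1.57 ± 0.23, edgeR adjusted p = 0.0147). The treatments did not overlap in 4 of the 9 subunits, Itgb3, Itga8, Itgb8 and Itgb5, beside 19.6% of all genes tested. Itgb8, the epithelial chain that with αv activates TGF-β, fell by 1.17 ± 0.24 on the log2 scale, and Itgb5, the β5 chain, fell by 0.54 ± 0.14 (edgeR adjusted p = 0.0254 and 0.0368). Itgb6, a β chain of bile duct epithelium, was at -1.30 ± 0.42 without passing (edgeR adjusted p = 0.0718), with 0.161 to 0.748 CPM in antiCD47 livers and 0.726 to 1.16 CPM in IgG livers. Itgav, the common αv chain, was at 0.17, Itga5 at 0.22, Itgb7, the other partner of α4, at 0.11 and Itgax, a chain of dendritic cells and macrophages, at -0.36, and none of these 4 passed (edgeR adjusted p = 0.214 to 0.75). Under scaling by library totals Itgav (-0.014) and Itgb7 (-0.083) changed sign.

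Of 14 other integrin subunits, 13 were tested, 2 rose and 4 fell, with a median of -0.20. Of all genes tested, 5.44% were called higher and 5.4% lower. The leukocyte chains Itgal (0.86) and Itgam (0.90) rose, and the laminin-binding chains Itga3 (-0.62), Itga6 (-0.60) and Itgb4 (-1.04) and the collagen-binding Itga11 (-1.65) fell. By level per kilobase of the longest transcript, Itgb1 stood at rank 1, Itga9 at rank 5 and Itga4 at rank 17 of 26 integrin subunits in antiCD47 livers, and at ranks 1, 5 and 16 in IgG livers. These ranks depend on the length used: per kilobase of the median transcript they were 2, 3 and 13 in IgG livers. By change, the 3 chains of α4β1 and α9β1 lay between the subunits that rose and those that fell.

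**Figure D2:**
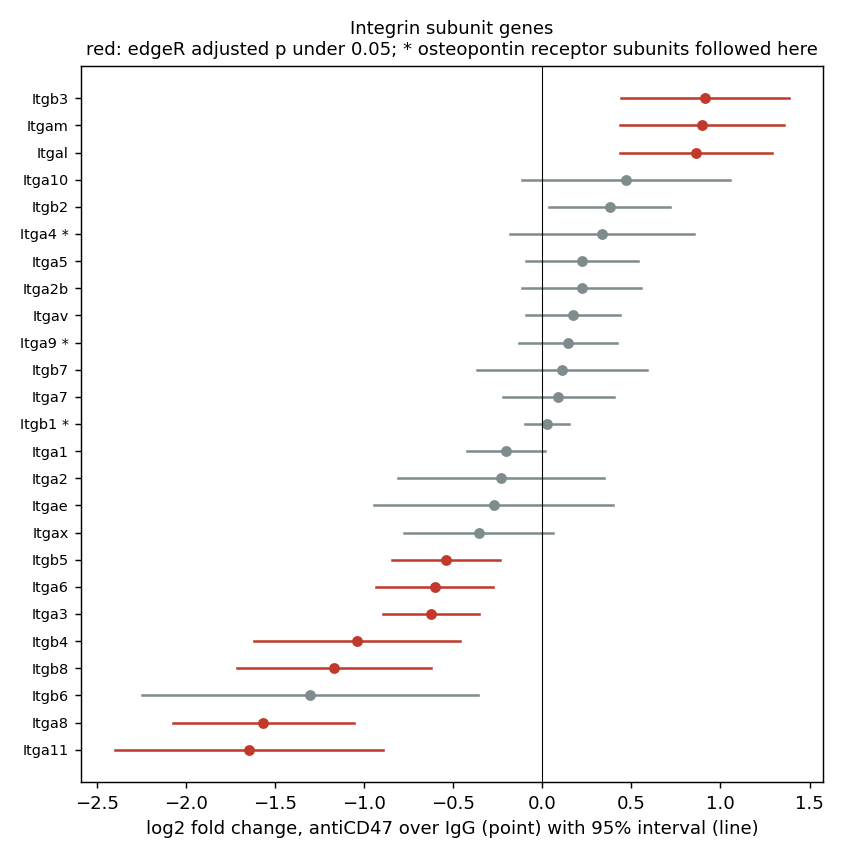
Log2 fold change of antiCD47 over IgG livers (horizontal axis; points) with 95% intervals (lines) for the 25 integrin subunit genes tested, from the highest at the top to the lowest. Red marks edgeR adjusted p under 0.05, and asterisks mark Itga4, Itga9 and Itgb1, whose intervals all include 0.

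The level of Spp1 was then set beside those of biliary cells and macrophages in each library. Epcam, an adhesion protein of bile duct epithelium, had 7.42, 2.82, 3.83 and 4.08 CPM in antiCD47 livers and 15.3, 12.0, 12.4 and 16.0 CPM in IgG livers, and fell by 1.62 ± 0.26 on the log2 scale (SE; edgeR adjusted p = 0.016). Sox9, a transcription factor of biliary and progenitor cells, had 8.40, 8.18, 7.90 and 5.65 CPM in antiCD47 livers and 10.3, 11.6, 9.72 and 11.1 CPM in IgG livers, and fell by 0.50 ± 0.13 (edgeR adjusted p = 0.0395). The treatments did not overlap in either gene. Epcam shared with Spp1 its highest library (IgG 4), its lowest (antiCD47 2) and the order of the IgG livers, whereas Sox9 was lowest in antiCD47 4 and highest in IgG 2.

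Like Sox9, the macrophage genes ranked the libraries differently from Spp1 within each treatment. Unlike Sox9, they did not pass the threshold. Cd68, a lysosomal protein of macrophages in general, had 27.0, 30.5, 28.7 and 32.1 CPM in antiCD47 livers and 22.6, 20.3, 32.9 and 23.9 CPM in IgG livers (log2 0.25 ± 0.14, edgeR adjusted p = 0.244). Gpnmb, a glycoprotein of lipid-laden macrophages, had 34.9, 14.5, 30.2 and 52.9 CPM in antiCD47 livers and 42.4, 25.5, 63.3 and 34.0 CPM in IgG livers (log2 -0.32 ± 0.37, edgeR adjusted p = 0.574). Both overlapped between the treatments, and IgG 3 was highest in both. antiCD47 2, the library lowest in Spp1, was also lowest in Gpnmb, while antiCD47 4 was the second lowest in Spp1 and the second highest in Gpnmb.

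**Figure D3:**
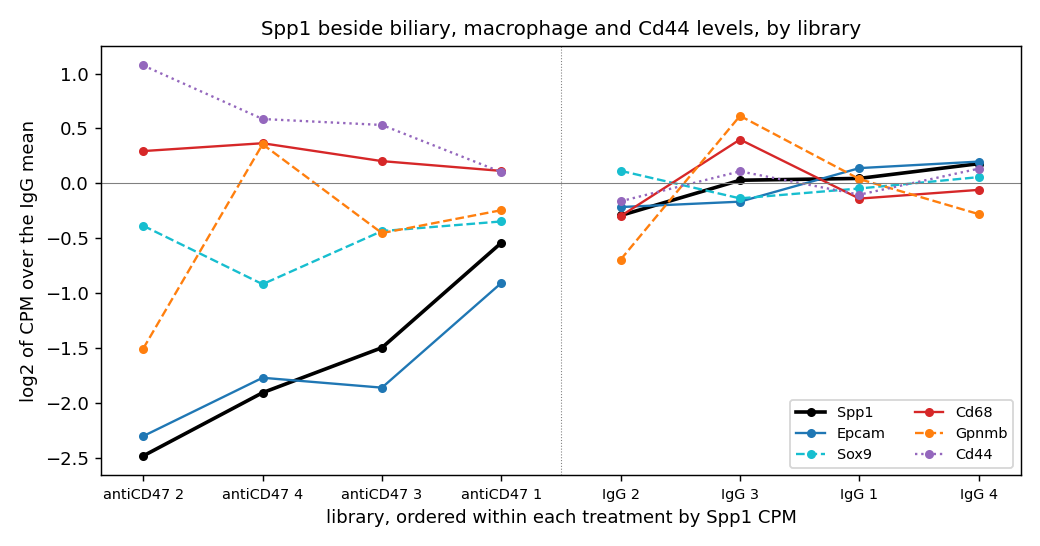
Log2 of the CPM over the mean of the IgG livers (vertical axis) for Spp1, Epcam, Sox9, Cd68, Gpnmb and Cd44 in each library (horizontal axis, ordered within each treatment by Spp1). Epcam runs close to Spp1 in all libraries, while Cd68 lies above 0 in all 4 antiCD47 livers and Gpnmb runs at both sides of 0 in both treatments.

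Ratios of counts within a library need no scaling between libraries. For each count of Epcam there were 40.6, 27.7, 40.4 and 28.6 counts of Spp1 in antiCD47 livers, and 29.5 to 36.0 in IgG livers. The mean log2 ratio of Spp1 to Epcam was 5.08 ± 0.30 in antiCD47 livers and 4.98 ± 0.13 in IgG livers (SD, n = 4 each), a difference of 0.0995 (exact permutation p = 0.543, two-sided), and leaving out each library in turn gave 0.011 to 0.19. Spp1 per count of Cd68 was 11.2, 2.57, 5.41 and 3.64 in antiCD47 livers and 13.6 to 20.8 in IgG livers, without overlap, and the log2 ratio differed by -1.87 (two-sided exact permutation p = 0.0286, which is the lowest value that 4 libraries against 4 allow). Against Sox9 the log2 ratio differed by -1.08 and against Gpnmb by -1.22 (exact permutation p = 0.0571 each, two-sided), with an overlap of 1 antiCD47 library, antiCD47 1, with the IgG range in each. Adjusted over the 4 ratios, the exact permutation p was 0.543 for Epcam and 0.0762 for each of the other 3, so none passed. The log2 fold change of Spp1 alone was -1.43, so the ratios to Cd68, Sox9 and Gpnmb in part restate its fall. Because the treatments do not overlap in Spp1, the libraries form separate clusters of 4. No correlation of Spp1 with the 4 reference genes that pools the treatments without subtracting their means is therefore given.

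**Figure D4:**
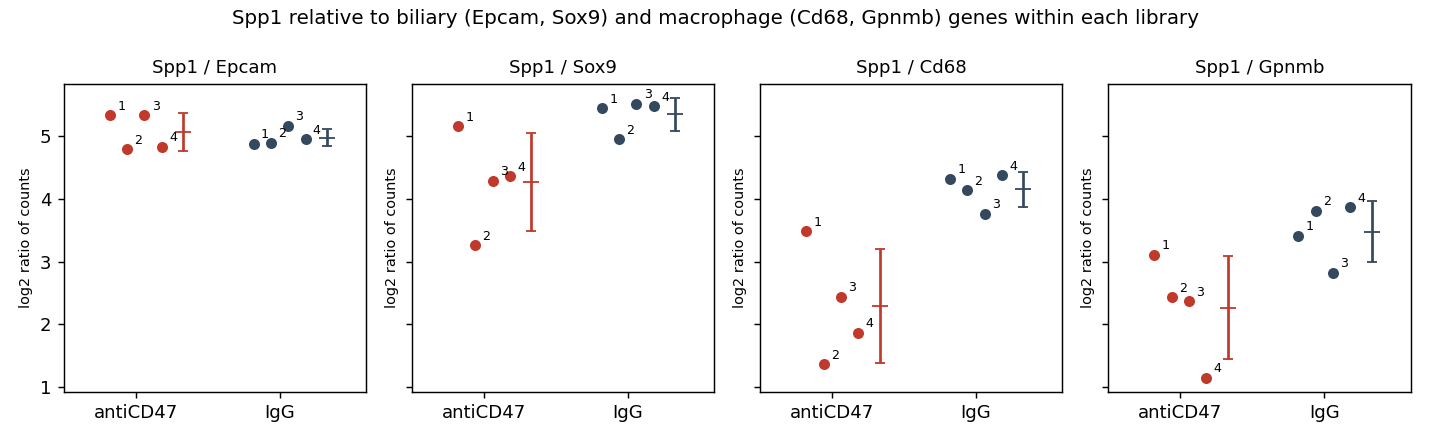
Log2 ratio of Spp1 counts to Epcam, Sox9, Cd68 and Gpnmb counts (vertical axis, shared by the panels) in antiCD47 and IgG livers, 1 point per library with its number, and the mean with SD (n = 4) beside the points. The Spp1 to Epcam ratio lies near 5 in both treatments, and the Spp1 to Cd68 ratio of every antiCD47 library lies below that of every IgG library.

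Marker lists of cell types, chosen with earlier results of these data known, were read beside these values. Of all genes tested, 5.4% were called lower and 5.44% higher. Of 13 biliary markers 12 fell and none rose (median log2 -1.22), with Krt19 alone short of the threshold (edgeR adjusted p = 0.0537), and their summed level was 47.2 to 73.6 CPM in antiCD47 livers and 101 to 138 CPM in IgG livers. Tspan8 (-1.59), Epcam, Bicc1 (-0.98) and Prom1 (-1.41) had the smallest p. Of 14 markers of macrophages in general and of lipid-associated macrophages, 1 fell, Cd63 (-0.77), 13 did not pass and the median was -0.18; their summed level was 805 to 974 CPM in antiCD47 livers and 799.9 to 1066 CPM in IgG livers. Of 9 Kupffer cell markers 7 rose (median 1.18, summed level 356 to 644 CPM in antiCD47 livers and 180 to 333 CPM in IgG livers), of which Fcna (1.39), Folr2 (1.18), Clec4f (1.09) and Cd163 (2.33) had the smallest p and Marco (3.60) and Timd4 (2.16) were also called. All 8 neutrophil markers tested rose (median 1.75, summed level 16.6 to 36.0 CPM in antiCD47 livers and 6.76 to 9.37 CPM in IgG livers, with S100a9 at 2.27, S100a8 at 2.34, Cxcr2 at 1.48 and Clec4d at 1.81). Of 11 stellate cell markers 5 fell and none rose (median -0.43, summed level 497 to 707 CPM in antiCD47 livers and 809 to 1169 CPM in IgG livers), among them Lox (-1.32), Col1a2 (-1.08), Col1a1 (-1.25) and Col3a1 (-1.18). None of 10 lymphocyte and 8 endothelial markers passed (medians -0.37 and -0.077; lymphocyte sum 6.24 to 13.3 CPM in antiCD47 livers and 6.22 to 21.003 CPM in IgG livers, endothelial sum 154 to 180 CPM in antiCD47 livers and 132 to 187 CPM in IgG livers), nor did the 8 hepatocyte markers (median 0.12, and -0.063 under scaling by library totals). The part of these cell types in the values of Spp1 and Cd44 was not tested.

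Among the enzymes that cut and modify osteopontin some rose and some fell. Of 13 listed genes 12 were tested, 3 rose, 3 fell and 6 did not pass, beside 10.8% of all genes tested called in either direction, and the median was 0.095, which became -0.092 under scaling by library totals. F2, the prothrombin gene whose product exposes the cryptic site, was at 1172 to 1406 CPM in antiCD47 livers and 1096 to 1293 CPM in IgG livers (log2 0.12, edgeR adjusted p = 0.345). Cpb2, a plasma carboxypeptidase that trims the end left by thrombin, rose, with 331 to 492 CPM in antiCD47 livers and 225 to 295 CPM in IgG livers (log2 0.74 ± 0.15, edgeR adjusted p = 0.0221). Mmp7, matrilysin, which cleaves osteopontin and is made by bile duct epithelium, fell, with 3.29, 1.05, 2.56 and 1.297 CPM in antiCD47 livers and 6.54, 6.07, 4.06 and 11.9 CPM in IgG livers (log2 -1.80 ± 0.41, edgeR adjusted p = 0.0291). Mmp9, a gelatinase of neutrophils and macrophages, rose by 1.48 ± 0.31 on the log2 scale at a low level (0.885 to 1.51 CPM in antiCD47 livers, 0.231 to 0.622 CPM in IgG livers), and Mmp2, the gelatinase of stellate cells, fell by 1.62 ± 0.25 (edgeR adjusted p = 0.0258 and 0.016). Tgm2, a transglutaminase that crosslinks osteopontin, rose by 0.88, and Fam20c, the kinase that phosphorylates it, fell by 0.47 (edgeR adjusted p = 0.0348 and 0.0414).

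Other ligands share the receptors. Of 16 listed genes 12 were tested, 2 rose and none fell, beside 10.8% of all genes tested called, with a median of 0.047. Under scaling by library totals 1 rose, 2 fell and the median was -0.14. Adam12, a disintegrin that binds α9β1, had the lowest log2 fold change, -1.42 ± 0.41, without passing (edgeR adjusted p = 0.054). Fn1, fibronectin, bound by α4β1 and α5β1 and secreted in quantity by hepatocytes, rose, with 1166, 1830, 1514 and 1324 CPM in antiCD47 livers and 905, 1057, 661 and 861 CPM in IgG livers (log2 0.74 ± 0.17, edgeR adjusted p = 0.0287). Srgn, serglycin, a leukocyte proteoglycan that CD44 can bind, rose by 0.65 (edgeR adjusted p = 0.0433). Vcam1, the endothelial ligand of α4β1, was at 0.16 (edgeR adjusted p = 0.291), and Tnc, tenascin C, a ligand of α9β1, at 0.047 (edgeR adjusted p = 0.918). Hyaluronan synthase transcripts were scarce: Has1, Has2 and Has3 had at most 0.371 CPM in any library and were not tested. The other members of osteopontin's gene family, Ibsp, Dmp1, Dspp and Mepe, had at most 1 count in any library, where Spp1 had 3892 to 28727.

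Of 14 genes that link CD44 to the cytoskeleton, shed it, splice it or act beside it, 1 fell and 13 did not pass (median -0.006), beside 10.8% of all genes tested called. The count moved with the method: 4 fell under scaling by library totals, 3 rose by DESeq2 and 5 rose by quality-weighted voom. Esrp1, an epithelial splicing factor that retains the variable exons of Cd44, fell, with 0.393, 0.222, 0.389 and 0.486 CPM in antiCD47 livers and 1.09, 0.909, 0.95 and 1.37 CPM in IgG livers (log2 -1.53 ± 0.28, edgeR adjusted p = 0.0195). Esrp2, its relative in hepatocytes, had 52.2 to 56.7 CPM in antiCD47 livers and 48.1 to 53.4 CPM in IgG livers (log2 0.16, edgeR adjusted p = 0.104). The counts are per gene, so splice forms of Cd44 were not measured. Of 15 focal adhesion genes tested, Fermt2, kindlin-2, which activates integrin tails, rose by 0.37 and the kinase gene Src fell by 0.73 (edgeR adjusted p = 0.036 and 0.016), while 13 did not pass (median -0.065); Fermt2 was among the calls lost under scaling by library totals, where the list had 0 higher and 5 lower genes.

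Of 20 transcription factors and coactivators described as acting on Spp1, 18 were tested, 2 rose and none fell (median 0.082, and -0.095 under scaling by library totals). That count is near the 10.8% of all genes tested that were called. Spi1, the myeloid factor PU.1, rose, with 13.1, 16.0, 14.9 and 16.3 CPM in antiCD47 livers and 9.61, 10.1, 11.4 and 11.9 CPM in IgG livers (log2 0.49 ± 0.10, edgeR adjusted p = 0.025). Hnf4a, a hepatocyte factor, rose by 0.58 ± 0.15 (edgeR adjusted p = 0.0382). Runx1 was at 0.49 (edgeR adjusted p = 0.134) and Runx2, a factor of bone cells, at -0.44 (edgeR adjusted p = 0.248).

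Because factors of this list were measured beside their target, the 250 bases before the upstream annotated start of Spp1 are shown, from the RefSeq promoter table of GRCm38.p6, chr5:104434861-104435110, plus strand. That build is older than the GRCm39 named for the counts. Core words were searched on both strands, GAGGAAGT for PU.1, AACCACA for RUNX factors and TGANTCA for AP-1, and capitals mark every match.
Spp1 promoter: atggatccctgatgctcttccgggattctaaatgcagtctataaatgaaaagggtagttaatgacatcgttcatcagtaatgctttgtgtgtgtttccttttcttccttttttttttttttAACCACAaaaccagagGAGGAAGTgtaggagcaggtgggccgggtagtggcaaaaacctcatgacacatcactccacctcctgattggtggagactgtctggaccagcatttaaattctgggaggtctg
The RUNX word lies 129 to 123 bases before the start and the PU.1 word 113 to 106 bases before it, with no overlap between them, and no AP-1 word is in this window. Among 32851 promoter windows of the same length, 2.44% hold the PU.1 word, 4.40% the RUNX word and 6.75% the AP-1 word. The window before the other annotated start of Spp1 holds none of these words, nor do those of Cd44, Itga4, Itga9 and Itgb1. A match of letters describes the sequence and does not show that a factor binds.

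The genes whose pattern was most like that of Spp1 were sought by Pearson's r of log2 CPM over the 8 libraries, among 11944 other genes with a mean of at least 1 CPM, as a description without a test. Calcoco1 (r = 0.996), Eml2 (0.995), Cirbp (0.989), Taz (0.988) and Maged2 (0.987) were among the closest. Cirbp is a cold-inducible RNA-binding protein and Taz, in this annotation, tafazzin of mitochondria. These values mix the difference between treatments with that between libraries. After each treatment's mean was subtracted, the closest genes were Calcoco1 (0.986), Slc25a13 (0.984), Tdrp (0.983), Eml2 (0.982), Nectin2 (0.982) and Copg2 (0.98), so Calcoco1 and Eml2 were named by both measures. By this second measure Epcam had 0.942 (rank 75) and the collagen gene Col1a1 0.849 (rank 562). Gpnmb had 0.445 (rank 3275), Sox9 0.228 (rank 4438) and Cd68 -0.178 (rank 6587). Both measures share the scaling of the libraries, and only the first holds the treatment contrast. The second rests largely on the few antiCD47 livers, where Spp1 ran from 78.4 to 301 CPM, against 358 to 497 CPM in IgG livers.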

How the data were processed

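Per the labels' protocols, RNA was extracted from whole liver and libraries were made with Illumina TruSeq chemistry. The deposited table holds estimated counts (expected counts, whole numbers in every cell) per Ensembl gene for 8 libraries; Salmon 1.3.0, DESeq2 1.32.0 and GRCm39 are named in the submitters' processing notes, with no role stated. A second deposited table gives, per the file headers, the authors' own comparison: a mean normalized signal over all libraries, a log2 fold change, p-values and a rank score. Its adjusted p-values are quoted, and its gene symbols were used. Columns were matched to samples by title.

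Genes were filtered with filterByExpr by group, scaled by TMM and tested with glmQLFit and glmQLFTest in edgeR 4.0.16 (R 4.3.3), fitted over all 15472 genes that passed, with no covariate; all 5 genes passed the filter. Alternatives used limma 3.58.1 and DESeq2 1.42.0. Ratios took counts plus 0.5 and an exact permutation test over 70 regroupings. Transcript lengths and some symbols came from an older build, GRCm38. The genes, references and 16 lists were chosen with earlier results of these data known. The text names the 5 genes, the references, the other osteopontin-binding subunits, up to 4 called genes with the smallest p of each list and the 6 genes most like Spp1 by each measure, of which 1 is not reported here; further genes are named by their function in osteopontin biology, chosen after their values were seen. Itgb1bp1 matched no row and was not analysed here. No pair of libraries of a treatment agreed within sampling noise (smallest chi-square per degree of freedom 25.96). If libraries shared an animal, p-values would measure technical spread only. Total counts set the counting precision.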

Additional observations from a re-analysis of the deposited data

Results flagged for a closer look

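The log2 ratio of Spp1 to Sox9 in IgG 2 was 4.95, away from the other IgG livers at 5.45, 5.52 and 5.48, by more than Dixon's 95% critical value for 4 samples. Of 26 groups of 4 libraries checked, this was 1, and chance flags about 1 in 20. Without IgG 2 the difference in that ratio between antiCD47 and IgG livers was -1.21 on the log2 scale.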

How the results depend on the processing

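Spp1 kept its direction in all 18 alternatives, with log2 fold changes of -1.91 to -1.20, and passed in 11; it missed the threshold with the robust quasi-likelihood fit (-1.43, adjusted p = 0.0538) and in 6 of 8 fits without a library (-1.91 to -1.20 over the 8). Cd44 stayed positive and passed in 5, with no low count filter (0.61), with at least 10 counts in every library of a group (0.61), by DESeq2 (0.62), by quality-weighted voom (0.53) and without antiCD47 1 (0.75; 0.42 to 0.75 over the 8 libraries left out). Itga4 did not pass in any (0.14 to 0.51). Scaling by library totals reversed Itga9 (-0.046) and Itgb1 (-0.16), and upper quartile scaling reversed Itgb1 (-0.038); neither passed in any alternative. Those scalings moved the median of all genes to -0.19 and -0.07, and these genes moved by about as much. The cause of the other changes was not tested. The numbers of genes higher and lower were 428 and 3153 with library totals, 1699 and 1480 by DESeq2, 2133 and 2198 by voom with quality weights, and 1850 and 1724 at an adjusted p of 0.1. With a library left out they ran from 2 to 1843 higher and 0 to 1787 lower; the 0, without IgG 4, stands beside 1949 lower genes at an unadjusted p under 0.05. The 4 ratios kept their direction in all 10 alternatives each. Same-numbered libraries of the 2 treatments correlated by -0.023 to 0.157 and 1 of 4 antiCD47 libraries was closest to its own number, so the numbers were not taken as pairs; with the replicate block Spp1 was at -1.60 (adjusted p = 0.0151), Cd44 at 0.58, and 1214 genes were higher and 1211 lower. Per kilobase of the median transcript, levels moved by more than the spread for Cd44, Itga4, Itga9 and Itgb1.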
